A study of Mus musculus with 8 samples.

Results

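Toll-like receptors (TLRs) are sensors of microbial molecules that end in the transcription factor NF-kB, and 48 genes of that pathway were followed here by ATAC-seq in AML246, a line of mouse acute myeloid leukaemia cells. The 48 were chosen by name: 10 receptors, 14 adaptors, kinases and NF-kB subunits, 12 feedback regulators and 12 cytokines and chemokines. ATAC-seq finds accessible chromatin by letting a transposase insert adapters into it, and for each library a list of peak summits was deposited. Intervals reaching 150 bp to either side of every summit were merged over all lists, and a region belonged to the protein-coding gene whose span (mm10, RefSeq) was nearest to its midpoint, within 100 kb. This gave 250 member regions, at 46 of the 48 genes, of 68800 in all, of which 64638 were assigned to some gene. Receptors held 44 of them, adaptors, kinases and NF-kB subunits 84, feedback regulators 88 and cytokines 34.

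All cells were AML246 kept in medium with IL-3 and taken as viable cells by flow sorting. Day 0 was untreated. Further libraries came after 4, 8 and 12 days with doxycycline (Dox, 0.1 µg/mL), which by the sample titles restored PU.1, the myeloid ETS factor encoded by Spi1. A CD11b-high sort was taken at day 12, and total cells again 4, 8 and 12 days after the drug was removed, which the titles call PU.1 knockdown. Each of these 8 groups was 1 library of 50000 cells, so there is no replicate error, no test between conditions was run, and every value describes these libraries. The construct through which the drug controls PU.1 was not given in the sources used here.

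In the resting cell NF-kB dimers of Rel-family proteins are held in the cytoplasm by IkB inhibitors. A ligand-bound receptor recruits Myd88 and Irak kinases, Traf6 is engaged, the IkB proteins are degraded, and the freed dimers bind kappa B sites at cytokine genes and at the genes of their own inhibitors, a negative feedback loop. Macrophages and neutrophils carry much of this system, and PU.1 is known to bind the promoter of Tlr4.

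"Open" means that a region held a summit of that library. A region without a summit was not called, which does not show that it was closed. The lists held between 31957 and 51175 summits, and longer lists reach weaker regions. Their read depth was not given in the sources used here. Each summit's score was read as −log10 of the peak caller's p-value or q-value and rises with depth, so scores are read within a list. The median score of a list ran from 9.41 at day 12 to 12.6 at day 4. Scores of a region given below for several libraries therefore do not measure a change between them. The myeloid label was set beside markers of blood and other cells: 7 of 8 myeloid marker genes (including Cebpa, Mpo and Itgam) had regions. Of the 39 myeloid regions 15 were open at day 0 (38.5%), 23 at day 4, 27 at day 8, 21 at day 12, 20 in CD11b-high cells and 28, 24 and 15 at 4, 8 and 12 days off. Of all gene-assigned regions 52.1, 51, 67.3 and 49.9% were open at day 0, 4, 8 and 12. The share was 51.3% in CD11b-high cells and 73.3, 59.6 and 46% at 4, 8 and 12 days off. The highest myeloid shares, 69.2% at day 8 and 71.8% at 4 days off, thus fell in the longest lists and near their shares. Of the 9 regions of 5 B cell markers 7 were open at day 0 (77.8%), 3 at day 12, 1 in CD11b-high cells, then 3 at 12 days off. The 8 regions of 5 erythroid markers had 5 open at day 0 (62.5%) and 2 to 6 per library, the 11 of T cell markers 4 to 9 and the 25 of epithelial or stromal markers 10 to 18. By share of open regions at day 0 the myeloid list was thus the lowest of the 5, and the part of such marker shifts in the member calls was not tested. That rank leans on Ptprc, a gene not confined to myeloid cells. It held 14 of the 39 myeloid regions, of which 4 were open at day 0, and the order without it was not computed. Elane, Cd79a, Ms4a1, Cd8a and Gata1 had no region. Accessibility near a marker is no measure of its RNA, and ATAC-seq of bulk cells cannot tell a change within cells from a change in the mix of cells. The 7 regions of Spi1 had 3 open at day 0 and 4 at day 12, which is no measure of PU.1 level.

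The stretches before 7 start sites are shown as examples. These genes carry gained, lost or constant regions described further on and hold the letters of a kappa B or PU.1 site. The 7 are not all such genes, since windows of Rel, Tnf and Traf6, among others, also hold a match. RefSeq start-site windows (GRCm38.p6, the build of mm10) were matched for 37 of the 48 members, with 43 windows of 250 bases before to 50 after a start site. The kappa B motif, whose matches are the 10 capital letters in 6 of the sequences, and the PU.1 pattern GAGGAAG were searched on both strands. No match of the first overlapped a match of the second in these windows. The kappa B motif was found in 11 of 43 member windows, belonging to 9 of 37 genes, while 1.60% of 21263 windows of protein-coding genes held it. GAGGAAG was found in windows of 9 of 37 genes, 24.3%, beside 15.5% of all 17492 protein-coding genes with a window. The members were picked by name, and several are textbook NF-kB targets, so these shares describe the choice of genes. A match is a string of letters and not a bound site. Each sequence below is the 150 bases before the start site, 5′ to 3′ on the gene's strand, with the match in capitals. For Nfkbia and Tnfaip3 the match lies on the opposite strand and is printed as its reverse complement.
Tlr9: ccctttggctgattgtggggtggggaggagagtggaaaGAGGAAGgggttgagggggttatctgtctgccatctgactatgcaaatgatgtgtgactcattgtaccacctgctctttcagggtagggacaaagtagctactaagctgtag
Nfkb2: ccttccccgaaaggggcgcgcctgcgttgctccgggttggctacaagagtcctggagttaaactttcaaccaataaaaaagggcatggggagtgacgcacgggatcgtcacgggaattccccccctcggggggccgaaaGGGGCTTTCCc
Traf3: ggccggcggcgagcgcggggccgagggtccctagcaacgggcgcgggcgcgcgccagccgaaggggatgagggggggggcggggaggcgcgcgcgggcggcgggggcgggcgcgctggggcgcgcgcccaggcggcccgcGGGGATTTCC
Nfkbia: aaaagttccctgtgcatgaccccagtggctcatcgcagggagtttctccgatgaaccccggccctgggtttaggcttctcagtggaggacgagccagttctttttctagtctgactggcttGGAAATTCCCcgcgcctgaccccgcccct
Tnfaip3: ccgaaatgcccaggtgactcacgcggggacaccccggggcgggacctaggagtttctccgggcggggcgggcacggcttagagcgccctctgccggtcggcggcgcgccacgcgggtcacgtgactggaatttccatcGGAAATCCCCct
Cxcl2: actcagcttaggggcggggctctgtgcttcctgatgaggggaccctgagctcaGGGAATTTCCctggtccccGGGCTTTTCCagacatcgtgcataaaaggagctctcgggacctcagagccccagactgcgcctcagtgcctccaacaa
Il6: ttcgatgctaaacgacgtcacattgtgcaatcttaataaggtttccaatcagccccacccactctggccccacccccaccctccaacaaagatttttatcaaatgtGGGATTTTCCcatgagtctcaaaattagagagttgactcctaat
These stretches lie at chr9:106222448-106222597 (Tlr9, plus strand, the capitals being GAGGAAG), chr19:46304587-46304736 (Nfkb2, plus, the upstream of 3 listed start sites), chr12:111166220-111166369 (Traf3, plus), chr12:55492648-55492797 (Nfkbia, minus), chr10:19015411-19015560 (Tnfaip3, minus), chr5:90903749-90903898 (Cxcl2, plus) and chr5:30012964-30013113 (Il6, plus). Cxcl2, which encodes a neutrophil chemokine, had 2 kappa B matches, beginning 97 and 78 bases before its start site. In Il6 the match began 44 bases before the start, and in Traf3 the 10 bases of the match ended at the base before it. The Traf3 stretch was 86.7% G and C and the Il6 stretch 44%.

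Of 43 member windows, 36 overlapped a region of some library and 22 (51.2%) overlapped regions open in all 8. Among windows of all protein-coding genes 49.3% overlapped a region and 39.3% were open in all 8. Of the 11 kappa B windows 6 were open in all 8 libraries, beside 144 of 341 such windows of all protein-coding genes. The windows are not all separate sites, since the downstream ones of Nfkb2 overlap each other and meet the same region. In single libraries 32 of the 43 windows were open at day 0, 27 at day 12, 27 in CD11b-high cells, 33 at 4 days off and 25 at 12 days off. These were 74.4%, 62.8%, 62.8%, 76.7% and 58.1%, beside 45%, 43.4%, 43.5%, 46.4% and 44.1% of all protein-coding windows. By role, 1 of 10 receptor windows was open in all 8, 10 of 12 of the adaptors, kinases and NF-kB subunits, 9 of 13 of the feedback regulators and 2 of 8 of the cytokines.

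**Figure D1:**
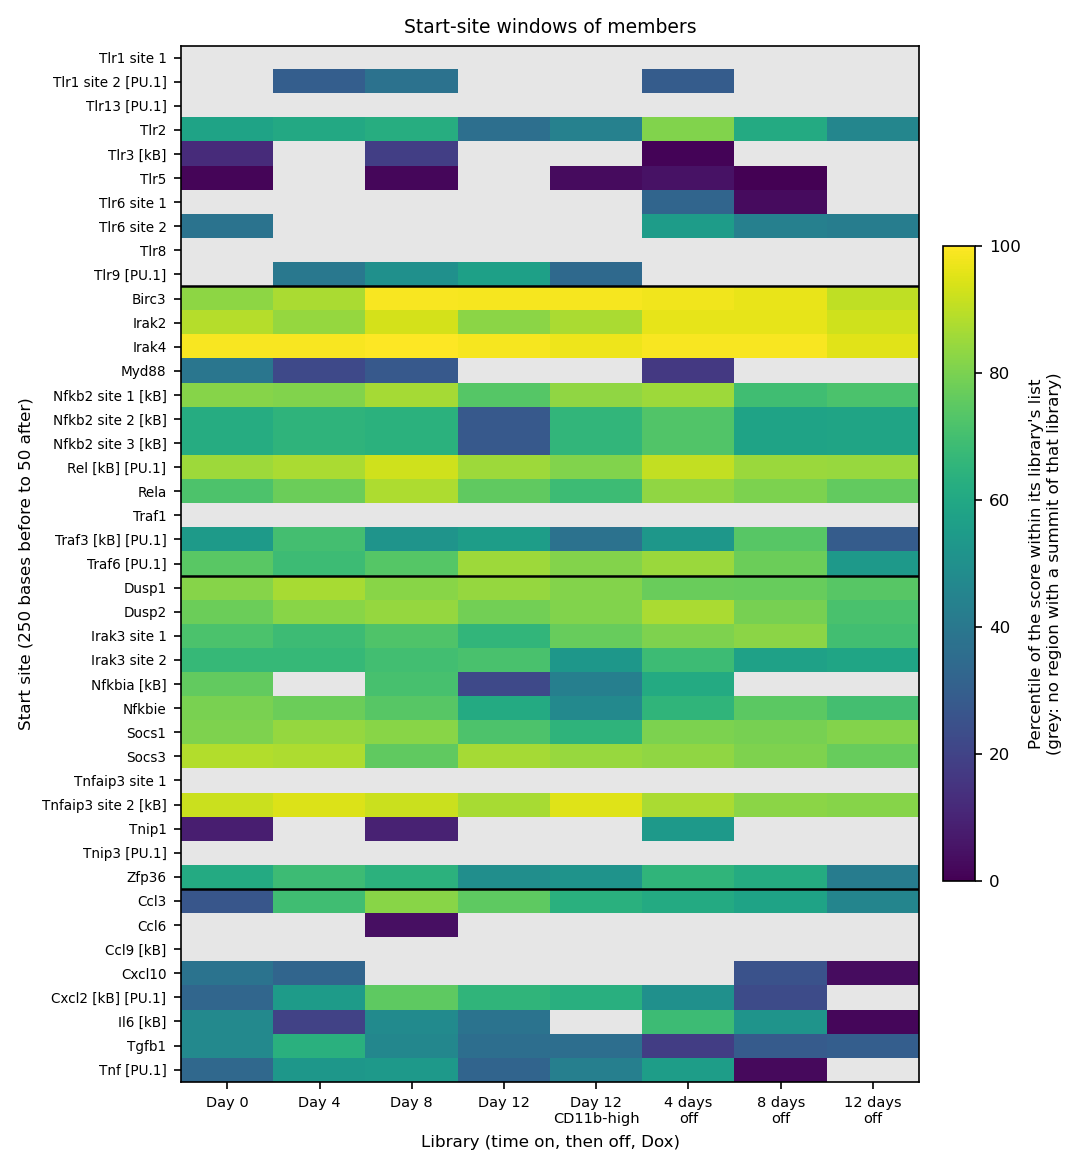
Each row is a RefSeq start-site window of a member and each column a library; colour gives the percentile of the best overlapping summit within its own list, grey a window with no summit of that library, and [kB] or [PU.1] a match of the kappa B or PU.1 motif. Rows are grouped by role, from receptors at the top to cytokines at the bottom, and 22 of the 43 rows have no grey cell.

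The day 0, 4, 8 and 12 lists held 139, 148, 189 and 148 open member regions, the CD11b-high list 147, and the lists of 4, 8 and 12 days off 181, 147 and 119. Set against 10000 open regions of the same list this was 39.3 (exact 95% interval 33 to 46.3) before Dox, then 42.9, 41.1 and 43.4 (36.7 to 51) after 4, 8 and 12 days, and 41.8 in CD11b-high cells. After withdrawal it was 36.2 at 4 days, 36.2 at 8 days and 38.2 (31.6 to 45.7) at 12 days. The intervals of all 8 libraries overlapped, and the order of day 0 and the libraries off Dox turned with the processing: with scores of at least 10 it was 37.9 at day 0 beside 39.9, 38.2 and 38.1 off Dox. Such intervals, here and below, are Clopper-Pearson and cover counting error only. The median member score sat between percentile 47 and 57.4 of its list, beside 51.5 to 52.4 for all gene-assigned regions.

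**Figure D2:**
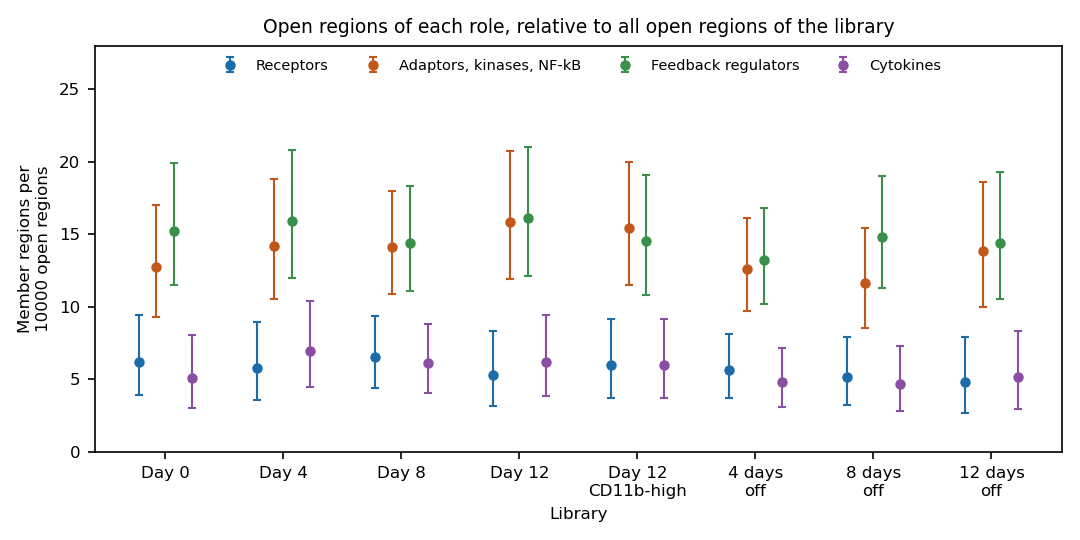
Points give the open regions of each role per 10000 open regions of the library (vertical axis) in the 8 libraries (horizontal axis), with exact 95% intervals for counting error. Within each role the intervals of all libraries overlap: receptors lie between 4.81 and 6.53, and cytokines between 4.68 and 6.96.

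While PU.1 was restored, 19 member regions at 16 genes were gained and 15 at 12 genes were lost. A gained region lacked a summit at day 0 and held 1 at each of day 4, 8 and 12, and a lost region was open at day 0 and at none of those days. Over all gene-assigned regions 4.86% were gained and 5.49% lost. Among members 7.6% (4.64 to 11.6) were gained and 6% (3.4 to 9.7) lost, and both intervals included the background. Without the day 4 list 33 of 250 member regions were gained, beside 9.94% of all gene-assigned regions. Without the day 12 list it was 30 of 250, beside 7.49%. With scores of at least 10 the lost member regions numbered 4 of 154, beside 5.01% of all gene-assigned regions. Intervals were computed for the main rule only, so whether they include the background under these settings was not tested. A summit of the opposite time lay within 1 kb of 1 gained region, at Rela, and of 5 lost ones, at Tlr6 (2), Cxcl2, Socs1 and Rela. Leaving out all regions with such a neighbour, 18 of 250 member regions were gained, beside 4.32% of all gene-assigned regions. By the same rule 10 of 250 were lost, beside 4.45%. Regions open at all 4 times, called constant, made up 97 of 250, 38.8% (32.7 to 45.1) beside 32.5%, and 77 were open in all 8 libraries, 30.8% beside 27.9%. With scores of at least 10 the constant ones were 49 of 154, beside 32.2%, and so no longer above the background. By gene, 41 of the 46 with a region had a constant one (89.1%, beside 73.6% of 16279 genes with a region), and 23 had neither a gained nor a lost region (50%, beside 70.8%). Members held a median of 4 regions and all genes 3, and the shares by gene were not adjusted for this. Of the 48 members, 16 had more open regions at day 12 than at day 0, 15 had fewer and 17 as many, including the 2 without a region. Tlr1 and Tlr6, Tlr7 and Tlr8, and the chemokines Ccl3, Ccl4, Ccl6 and Ccl9 are neighbours on chromosomes 5, X and 11, so these members share loci.

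**Figure D3:**
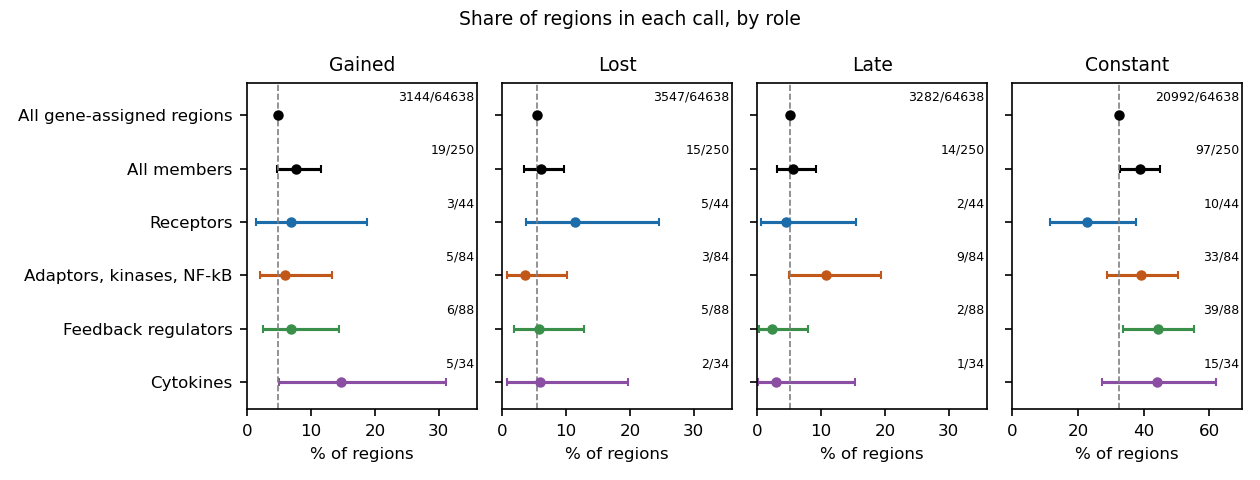
Each panel gives the percentage of regions with 1 kind of call (horizontal axis) for all gene-assigned regions, all members and the 4 roles (vertical axis), with exact 95% intervals, the counts, and a dashed line at the value of all gene-assigned regions. Receptors had the lowest constant share at 22.7% and cytokines the highest gained share at 14.7%.

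Among the receptors, Tlr9, Tlr2 and Tlr8 gained a region each, while Tlr6, Tlr13 and Tlr7 lost 5 between them. These were 3 and 5 of 44 regions, 6.82% (1.43 to 18.7) and 11.4% (3.79 to 24.6), and both intervals included the 4.86% and 5.49% of all gene-assigned regions. Tlr9, the endosomal receptor of unmethylated CpG DNA, gained its start site. Its region at chr9:106222426-106222761 spans the start site and the printed GAGGAAG. Its scores were 9.9 at day 4, 11.8 at day 8, 11.1 at day 12 and 6.55 in CD11b-high cells, and no summit was listed at day 0 or at 4, 8 and 12 days off. Within the lists these scores were percentiles 40.2, 50.2, 56.8 and 34. The summits of the first 3 libraries lay 0 to 22 bases before the start site and that of CD11b-high cells 13 bases after its first base. The nearest day-0 summit was 10459 bp away, so no adjoining day-0 region was listed. Inside Tlr9, 482 bp from a gene end, another region was open only off Dox, with scores of 9.91, 10.8 and 7.55 at 4, 8 and 12 days. The start site and this second region were not listed together in any library.

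Tlr2, which recognises bacterial lipoproteins, had its gained region 3455 bp outside the gene at chr3:83845058-83845500. It scored 3.93, 11.2 and 7.24 at day 4, 8 and 12, with 6.35 in CD11b-high cells, then 5.14 at 4 days off, after which it was not listed. Tlr2's own start site was open in all 8 libraries, with scores from 7.03 at day 12 to 32.5 at 4 days off, as was a region 21333 bp away. At Tlr8, a receptor for single-stranded RNA and its breakdown products, the gained region 11752 bp outside the gene, at chrX:167229182-167229561, scored 9.62, 5.24 and 4.44 at day 4, 8 and 12 and 6.97 in CD11b-high cells, and was listed at no time off Dox. A further Tlr8 region, 12817 bp outside, was first listed at day 8 (14.4) and last at 4 days off (8.29). All 4 Tlr8 regions were open in the 2 day-12 libraries, 2 at day 0 and 1 at 12 days off. Among the 10 receptors, 3 had more open regions at day 12 than at day 0 and 6 had fewer.

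Tlr6, a partner of Tlr2 in lipopeptide sensing, lost the region over a start site inside the gene, at chr5:64959941-64960272. Its score of 8.71 at day 0 was followed by absence from all 4 lists on Dox and by 14.1, 10.1 and 8.7 at 4, 8 and 12 days off. A second lost Tlr6 region (5.45 at day 0) had a later summit 391 bp away, and for the first the nearest lay at 912 bp. Within 1 kb the Tlr6 region at chr5:64960874-64961394 scored 2.79 at day 0, 27.7, 26.3 and 20.7 at day 4, 8 and 12, 24.1 in CD11b-high cells and 12.6 and 3.95 at 4 and 8 days off, with no summit at 12 days off. By the rule it counted as constant, although its within-list percentile was 1.71 at day 0 and 72.3 at day 4. Tlr13, a receptor of bacterial ribosomal RNA, lost 2 regions, 7170 bp (6.33 at day 0) and 4786 bp (8.16) outside the gene. The first was listed again in CD11b-high cells and at 4, 8 and 12 days off, where it scored 7.48, 8.29, 18.2 and 7.92. Tlr7, the other receptor for single-stranded RNA, lost a region 13582 bp away (7.23) that no other library listed. Inside Tlr7 a region appeared at day 8 (4.39) and scored 9.19 at day 12 and 14.9 in CD11b-high cells.

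The remaining receptors showed no gained or lost region. Tlr4, the lipopolysaccharide receptor, had its region at the gene end open in all 8 libraries with scores of 10.2 to 20.9. Its other 5 regions were open in 1 to 3 libraries each. Tlr5, the flagellin receptor, had its strongest region 7111 bp outside the gene, open in all 8 with scores of 22.9 to 60.3, while its start site scored 1.97 to 3.65 in the 5 libraries that listed it. Tlr1, another Tlr2 partner, had its outer start site listed at day 4 (7.57), day 8 (8.51) and 4 days off (7.23). Tlr3, which binds double-stranded RNA, had its start site listed at day 0, day 8 and 4 days off, at 2.49 to 5.79. Of the 10 receptors, 6 had a region open in all 8 libraries, 60% beside 69.2% of 16279 genes with a region.

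All 14 genes of the adaptors, kinases and NF-kB subunits had a region open in all 8 libraries, as did 69.2% of 16279 genes with a region. By regions this was 29 of 84, 34.5% (24.5 to 45.7) beside 27.9%. The 2 member regions of highest median percentile belonged to kinases among them. The start of Ripk2, the kinase downstream of the NOD receptors, scored 56.5 to 99 and had a median percentile of 99.8. The start of Irak4, the kinase that Myd88 recruits first, scored 42.7 to 88.7 with a median percentile of 99. Of 84 regions, 5 were gained and 3 lost, shares of 5.95% (1.96 to 13.3) and 3.57% (0.743 to 10.1) beside 4.86% and 5.49% of all gene-assigned regions.

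The 5 gained regions lay at Nfkb1, Rela, Ripk2, Irak2 and Traf3. Nfkb1 encodes the p105 precursor of p50 and had the most regions of any member, 21. Of these 9 were open at day 0, 9 at day 4, 16 at day 8, 13 at day 12, 12 in CD11b-high cells and 17, 11 and 10 at 4, 8 and 12 days off. Its gained region, 18193 bp inside the gene, scored 4.61, 8 and 7.41 at day 4, 8 and 12 and 11.6, 6.13 and 5.98 off Dox, and was absent from CD11b-high cells. At Ripk2 the gained region 19621 bp outside the gene, at chr4:16102888-16103335, scored 12.2, 22.5 and 7.61 at day 4, 8 and 12, 10.7 in CD11b-high cells, then 9.83 at 4 days off. Irak2 and Traf3 gained regions of lower score, 4.88 to 8.92 and 2.08 to 5.9 where listed. The nearest day-0 summit lay 4442 to 60571 bp from these 4 regions.

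At Rela, the gene of the transactivating p65 subunit, a gained and a lost region lay side by side. The gained region 728 bp outside the gene, at chr19:5648696-5649029, scored 26.8, 22.5 and 21.3 at day 4, 8 and 12, and the lost region 1064 bp outside scored 19.4 at day 0. Their summits were 322 bp apart. Accessible chromatin beyond that Rela gene end was thus listed at day 0 and on Dox, with a different summit, and at 4 days off neither region was listed. Nfkb2, the p52 precursor gene of the non-canonical pathway, lost a region 3154 bp from a gene end (6.91 at day 0) that was listed again at 4, 8 and 12 days off with scores of 6.12, 9.31 and 7.11. Its start sites with the kappa B matches were open in all 8 libraries. The lost Ripk2 region, 48012 bp outside the gene, scored 9.12 at day 0, 5.27 in CD11b-high cells, then 3.23 at 12 days off.

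Regions not open at day 0 and 4 but open at day 8 and 12, called late, were looked at after the values had been seen. They made up 9 of 84 regions here, 10.7% (5.02 to 19.4), beside 5.08% of all gene-assigned regions, and 14 of 250 members in all. The lower bound lay just under the background, and day 8 had the longest list of the 4. Nfkb1 held 3 late regions, Traf3 2, and Rel, Traf1, Ripk2 and Map3k8 1 each. Rel encodes c-Rel, the NF-kB subunit prominent in blood cells, and its late region 8125 bp inside the gene, at chr11:23762653-23763036, scored 13.5, 9.07 and 9.84 at day 8, at day 12 and in CD11b-high cells. It was not listed at any time off Dox. Myd88, the shared adaptor, had its start site listed at day 0 (9.1), day 4, day 8 and 4 days off (5.53) and in neither day-12 library, although all 8 libraries listed a region 1361 bp outside the gene (7.23 to 30.9). Birc3, an inhibitor of apoptosis and ubiquitin ligase, scored 34 to 68.7 at its start site, Relb, an NF-kB subunit of the non-canonical pathway, 32.9 to 71.2 at a gene end, and Traf6, the ubiquitin ligase after the Irak kinases, 11.2 to 36.8 at its start. These 3 genes had no gained or lost region.

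Of the feedback regulators' regions 39 of 88 were constant, 44.3% (33.7 to 55.3) beside 32.5% of all gene-assigned regions. Of the 12 genes 11 had a region open in all 8 libraries, 91.7% beside 69.2% of 16279 genes with a region. They held a median of 6 regions and all genes with a region 3, and these shares were not adjusted for this. Gained and lost regions made up 6.82% and 5.68%, beside 4.86% and 5.49%. Tnfaip3 encodes A20, a ubiquitin-editing enzyme that stops NF-kB signalling, and had 17 regions, of which 9 were constant. Its start site, with the kappa B match beginning 12 bases before the start, scored 52 at day 0, 69.5 at day 4, 44.1 at day 8, 26.2 at day 12, 38.7 in CD11b-high cells and 40.2, 31.8 and 25.5 off Dox. It stood between percentile 82 and 95 in every list. A region 46937 bp outside Tnfaip3 scored 49.2 to 80.4 in 7 libraries, and at 12 days off the summit (41.2) fell in the adjoining region. Irak3, which encodes the inhibitory kinase IRAK-M, had a region 19025 bp inside the gene with scores of 20.8 to 51.8 and a median percentile of 90.4.

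Gains in this role came at Dusp1, Tnfaip3, Tnip1 and Socs3. Dusp1 encodes a phosphatase that inactivates p38 and JNK kinases. Its region 7845 bp outside the gene, at chr17:26497552-26497940, was the gained member region with the highest score. It had no summit at day 0, scored 15.5 at day 4, 33.3 at day 8, 15.5 at day 12, 14.9 in CD11b-high cells, then 16.5 and 5.17 at 4 and 8 days off, and was not listed at 12 days off. Farther out, a gained region at 23287 bp and a late one at 24397 bp stood next to each other, and Dusp1 went from 3 open regions at day 0 to 7 at day 12 and back to 3 at 12 days off. Among the 12 feedback regulators, 3 had more open regions at day 12 than at day 0, 4 had fewer and 5 as many. The Dusp1 start site was open throughout, at 20 to 51.5. Socs3, a suppressor of cytokine receptor signalling, gained a region 16594 bp away that stayed listed in all later libraries, at 5.08 to 22.7. The gained region of Tnip1, an A20-binding protein gene, was absent from CD11b-high cells and listed at all 3 times off Dox. Tnfaip3 gained 2 regions, of which that at 69241 bp scored 2.2 to 3.68 and that at 18450 bp 3.96 to 9.48 where listed.

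Lost feedback regions lay at Nfkbia (2), Socs1, Socs3 and Tnfaip3. Nfkbia encodes IkBa, the classical inhibitor and NF-kB target. Its lost regions, 15440 and 13528 bp outside the gene, scored 3.81 and 5.46 at day 0, the first being listed again in CD11b-high cells and at 4 and 8 days off. At the gene itself 2 adjoining regions alternated. The start-site region with the printed kappa B match was listed at day 0 (27.8), day 8 (20.8), day 12 (5.52), in CD11b-high cells (8.09) and 4 days off Dox (16.9). The region 609 bp inside was listed at day 4 (31.2), day 12 (11.2), in CD11b-high cells (14.9) and at 8 and 12 days off (16.3 and 18.2). Every library thus listed at least 1 of them, so the grey cells of Nfkbia in the plot of start sites stand beside a listed summit. Socs1, an inhibitor of JAK kinases, lost a region 542 bp outside the gene (8.09) that had a later summit 400 bp away, next to a start site open in all 8. The lost regions of Socs3 and Tnfaip3 scored 4.56 and 3.45. Dusp2, Nfkbie, Nfkbiz and Zfp36, an mRNA-destabilising protein gene, had neither gained nor lost regions and start or gene-end regions open in all 8. Tnip3 had 2 regions, open in 1 and 2 libraries.

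Cytokine genes had the largest share of gained regions, 5 of 34 or 14.7% (4.95 to 31.1) beside 4.86% of all gene-assigned regions, with 2 lost. That interval began just above the background and rested on 4 genes, of which Ccl6 and Ccl9 lie beside each other on chromosome 11. Ccl6 and Ccl9 encode chemokines of the CC family made by myeloid cells. Ccl6 had no open region at day 0, 2 at day 4, 4 at day 8, 2 at day 12, 3 in CD11b-high cells and 2, 1 and 2 at 4, 8 and 12 days off. Its region 7706 bp outside the gene, at chr11:83600605-83600982, scored 8.86, 18.3 and 8.93 at day 4, 8 and 12, 8.87 in CD11b-high cells and 24.3, 5.67 and 8.57 off Dox. It was the only gained region besides that of Socs3 that every later library listed. The second, 23701 bp away, scored 20.9 at day 8 and 16.2 in CD11b-high cells and was missing at 8 days off. At Ccl9 the region 486 bp outside the gene, at chr11:83572235-83572627, scored 10.7, 15 and 12.9 at day 4, 8 and 12, 7.34 in CD11b-high cells, then 4.2 at 4 days off, with no summit at day 0 or at 8 and 12 days off. The Ccl9 start-site window, which holds a kappa B match, overlapped no region.

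Il6 and Il10, which encode an inflammatory and an anti-inflammatory cytokine, gained distal regions. The Il6 region 64824 bp outside the gene, at chr5:29948102-29948479, scored 15.8, 19.7 and 11.4 at day 4, 8 and 12, 12.5 in CD11b-high cells, then 4.74 at 4 days off, and was absent from day 0 and from 8 and 12 days off. The nearest day-0 summit was 45299 bp away. Il6's start site was listed in 7 libraries, at 2.73 to 21.3, and missing in CD11b-high cells. The Il10 region 32170 bp away, at chr1:130987456-130987894, scored 4.3, 13.1 and 11.3 at day 4, 8 and 12, and a late region 13363 bp from the gene scored 15.9 at day 8, 6.82 at day 12 and 9.56 in CD11b-high cells and was listed at no time off Dox. Il10 had 2 open regions at day 0, 4 at day 12 and 2 at 12 days off. Regions this far out were tied to a gene by the nearest span alone, and whether they act on it was not tested.

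The other cytokine genes had no gained region. Tnf, Ccl3, Ccl4, Osm and Tgfb1 had neither gained nor lost regions, which does not mean that their percentiles held steady. Tnf, the founding inflammatory cytokine gene, had a region inside the gene open in all 8 libraries (8.41 to 23.7) and a start-site region listed in all but the last (3.23 to 14.4). The region over the Ccl3 start site, whose midpoint counted towards its neighbour Ccl4, scored 6.81 at day 0, 24.6, 30.4 and 18 at day 4, 8 and 12, 13.1 in CD11b-high cells and 17, 14.5 and 9.21 off Dox. Within the lists that was percentile 26.8 before Dox, 69.5, 82.3 and 75.2 at day 4, 8 and 12, and 45.7 at 12 days off. Cxcl2's start region was listed everywhere but at 12 days off, at percentile 33 before Dox, 55, 75.2 and 65.6 at day 4, 8 and 12, and 22.8 at 8 days off. The Cxcl2 region called lost scored 2.3 and had a later summit 330 bp away. The highest-percentile cytokine regions open in all 8 lay 7465 bp outside Ccl3 (23.1 to 58.1) and 2354 bp inside Tgfb1 (13 to 41.1), the gene of an anti-inflammatory growth factor. Ccl2 and Cxcl10 had no region by the rule. The Cxcl10 start-site window did overlap a region assigned to another gene, which was listed at day 0 (8.74), day 4 (8.39) and 8 and 12 days off (6.81 and 3.2) and in the other 4 libraries not at all.

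**Figure D4:**
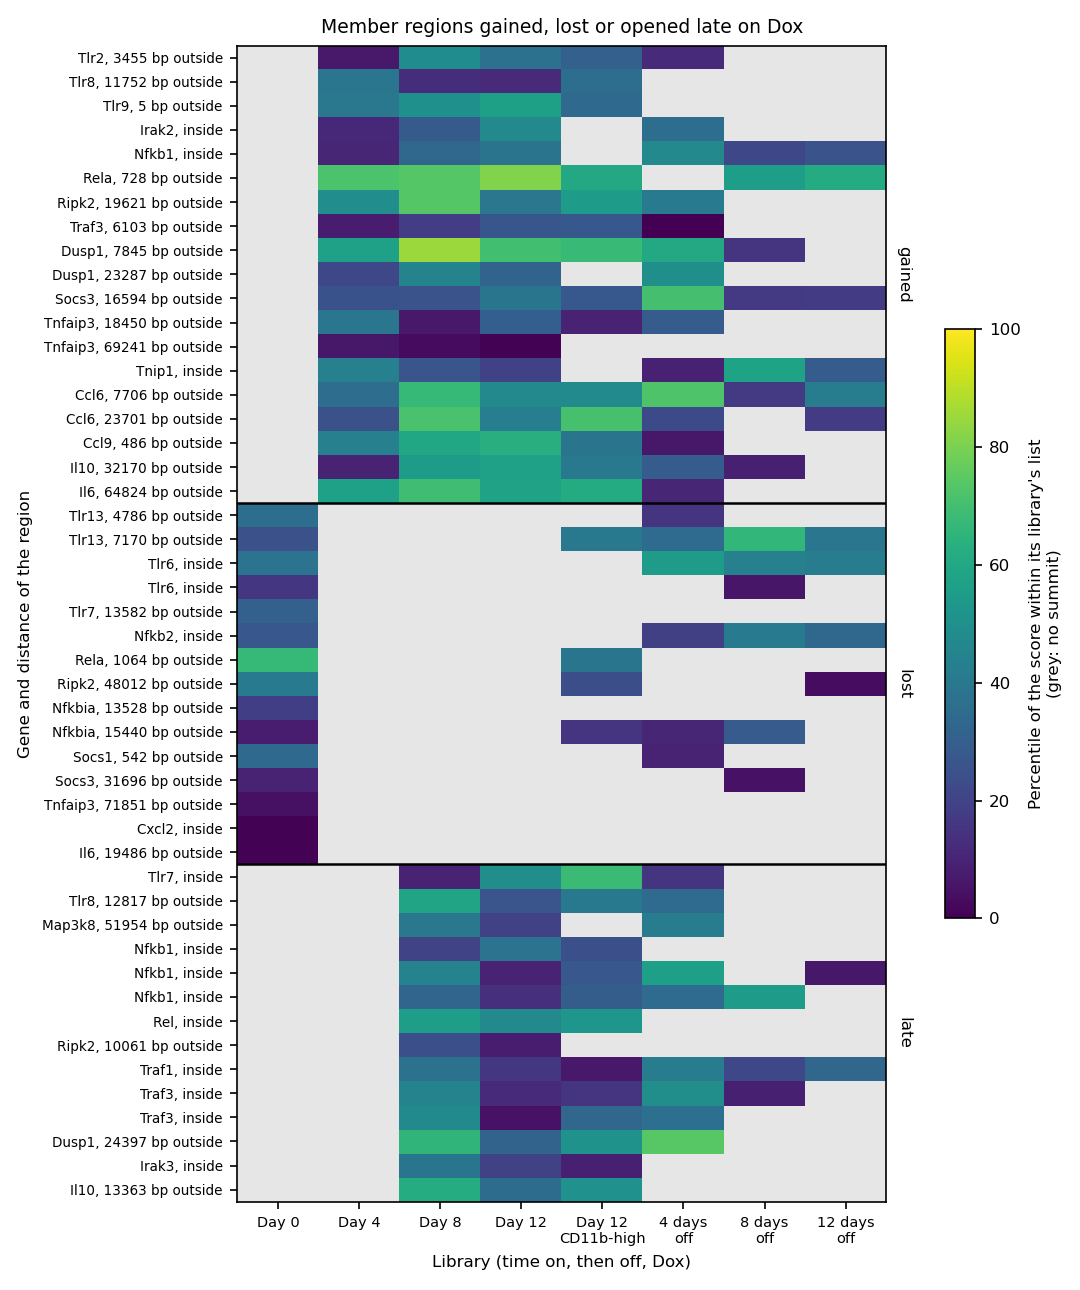
Rows are the 19 gained, 15 lost and 14 late member regions, with the gene and the distance to its span, and columns the 8 libraries; colour gives the percentile of the score within its list and grey means no summit. The gained block thins out from 4 days off (15 of 19 listed) to 12 days off (6 of 19), and day-0 scores of the lost rows run from 2.25 (Il6) to 19.4 (Rela).

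After Dox was withdrawn most gained member regions left the lists. Of the 19, 15 were open at 4 days off, 7 at 8 days and 6 at 12 days. The last was 31.6% (12.6 to 56.6) beside 26.9% of 3144 gained regions of all genes, and at 8 days 36.8% (16.3 to 61.6) stood beside 50%. All 3 receptor regions were missing at 8 and 12 days, those of Tlr8 and Tlr9 at 4 days too. The 6 regions open at 12 days off belonged to Nfkb1, Rela, Tnip1, Socs3 and Ccl6, which had 2. Of the 14 late regions 9, 3 and 2 were open at 4, 8 and 12 days off, beside 59.1%, 33.2% and 17.4% of 3282 late regions. Of the 15 lost regions 6, 6 and 4 were open at these times, beside 48.7%, 45% and 25.5% of 3547 lost regions. A region each of Tlr6, Tlr13 and Nfkb2 was listed at all 3. In CD11b-high cells 4 of the 15 were open, at Tlr13, Rela, Ripk2 and Nfkbia, beside 7.13% of all lost regions. Constant member regions stayed, with 97 of 97 open at 4 days off, 95 at 8 days and 84 at 12 days, the last 86.6% (78.2 to 92.7) beside 91.8%.

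**Figure D5:**
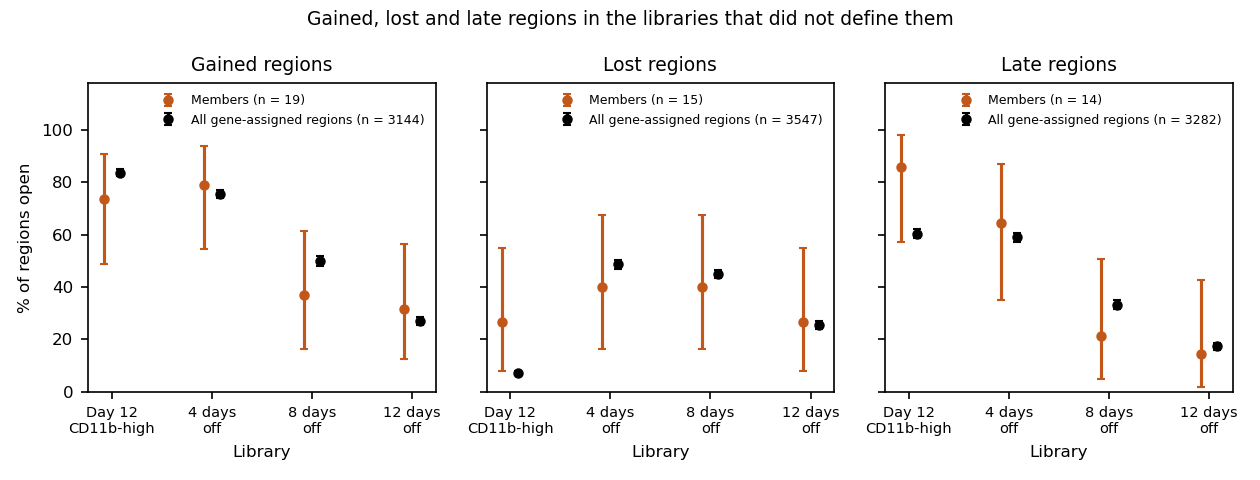
Points give the percentage of gained, lost and late regions (3 panels) that were open in the 4 libraries not used to define them, for members and for all gene-assigned regions, with exact 95% intervals. The member intervals include the value of all regions, except for lost regions in CD11b-high cells, where 26.7% (7.79 to 55.1) stood beside 7.13%.

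The CD11b-high sort of day 12 was set beside total cells of the same day. CD11b is an integrin chain of mature myeloid cells. Of the 250 member regions 127 were open in both libraries, 20 in CD11b-high cells only and 21 in total cells only. These were 50.8% (44.4 to 57.2), 8% and 8.4%, beside 40.8%, 10.5% and 9.15% of all gene-assigned regions. Nfkb1 had 2 regions only in CD11b-high and 3 only in total cells, Map3k8 1 and 3, Ripk2 2 and 2, and Nfkbia 2 and 1. Receptors had 5 regions only in CD11b-high cells, 11.4% (3.79 to 24.6), and 2 only in total cells, 4.55% (0.555 to 15.5). The former lay at Tlr5 (2), Tlr4, Tlr9 and Tlr13 and the latter at Tlr3 and Tlr6. Feedback regulators had 4 and 8, shares of 4.55% (1.25 to 11.2) and 9.09% (4.01 to 17.1). The intervals of both roles included the 10.5% and 9.15% of all gene-assigned regions. Adaptors, kinases and NF-kB subunits had 9 and 9, and cytokines 2 and 2. Of the gained member regions 14 of 19 were open in CD11b-high cells, 73.7% (48.8 to 90.9) beside 83.7% of all gained regions. The 5 that were not lay at Irak2, Nfkb1, Dusp1, Tnip1 and Tnfaip3. With 1 library each, a sort difference and a difference between 2 lists cannot be told apart.

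Most gained and lost member regions lay outside the genes. Of 19 gained regions 13 were more than 1 kb outside the gene, 68.4% (43.4 to 87.4), beside 37.3% of all gained regions. For lost regions it was 10 of 15, beside 38.8%. Members as a whole had this placement in 48% (41.7 to 54.4) of regions, beside 32.2% over all genes. Gene ends held 3 gained regions (Tlr9, Rela and Ccl9), 15.8% beside 8.84% of all gained regions, and 27 of the 77 regions open in all 8 libraries, 35.1% (24.5 to 46.8) beside 44.9%.

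A further 58 genes of the pathway, such as the lipopolysaccharide co-receptor Cd14, the kinases Ikbkb and Chuk and the adaptors Ticam1 and Tirap, had 253 regions. Of these 10 were gained (3.95%), 7 lost (2.77%) and 84 constant (33.2%), beside 4.86%, 5.49% and 32.5% of all gene-assigned regions. The gained ones lay at 8 genes and the lost ones at 6. Ly86, which encodes the MD-1 partner of the receptor Cd180, had 2 gained and 2 lost among 23 regions, and Traf5 2 gained among 8. Of the marker lists, gained, lost and constant regions numbered 6, 1 and 9 of 39 for the myeloid list, 0, 2 and 0 of 9 for B cells, 0, 0 and 3 of 11 for T cells, 0, 3 and 2 of 8 for the erythroid list and 3, 1 and 5 of 25 for the epithelial or stromal list. In the myeloid list 4 of the 6 gained regions and the 1 lost region lay at Ptprc, which is not confined to myeloid cells.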

How the data were processed

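ATAC-seq of 8 groups, 1 library each, was used as the authors deposited it: lists of peak summits with a score each. The submitters' processing notes name Picard 2.14.0, MACS2 without a version, and the build mm10. Aligner and sequencing depth were not given in the sources used here. ChIP appears in the labels' extraction protocol, while title, design and Nextera preparation name ATAC-seq. The scores the authors deposited were taken to be −log10 of the caller's p-value or q-value (which of them was not stated), since every list starts between 1.3 and 1.39, near the value of a threshold of 0.05.

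Intervals of 150 bp on either side of each summit were merged where they overlapped, over chromosomes 1 to 19, X and Y. The 85 to 121 summits per library on other contigs were left out. A region went to the protein-coding gene (21887 in the RefSeq table of GRCm38.p6) whose span lay nearest to its midpoint, within 100 kb. "Within 1 kb of a gene end" means either end of the span. Shares carry exact Clopper-Pearson 95% intervals, which cover counting error only. Neighbouring regions are not independent. A score percentile is the share of the same library's list with the same or a lower score. Start-site windows came from the RefSeq promoter table, in which 37 of 48 members matched. Python 3.11.15, NumPy 2.4.6, pandas 2.3.3, SciPy 1.17.1 and matplotlib 3.10.9 were used. The code of the region and call rules was checked on simulated lists with well separated sites. Adjoining summits such as those at Rela were not simulated, so the check does not cover them.

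The members and lists were chosen with earlier results of these data known. Genes named by rule were members with a gained or lost region, those with 3 or more regions in a single day-12 library, the member with most regions in each role, the 2 steadily open regions of highest percentile in each role, and, of the further pathway genes, those with 2 or more gained and lost regions. Other members, the late regions and the alternatives that leave out a day were chosen after the values were seen. The alternatives were a score of at least 10, lists of equal length, 75 or 250 bp around the summit, genes within 10 kb, leaving out changes with a neighbouring summit within 1 kb, and day 12 alone against day 0. Sequences and motifs of regions away from start sites were not analysed here.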

Additional observations from a re-analysis of the deposited data

How the results depend on the processing

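No paired analysis was possible because each group held 1 library. For the same reason no replicate could be left out, and a gained or lost call rests on the single day-0 list. Of 89 values recomputed under an alternative, 69 moved by less than the limits set for them and 20 moved more. Gained member regions numbered 19 of 250, and 10 of 170 with genes within 10 kb, beside 4.61% of all gene-assigned regions. With day 12 alone against day 0 they numbered 40 of 250, beside 13.5% of all gene-assigned regions. They numbered 33 without the day 4 list, beside 9.94%, and 30 without the day 12 list, beside 7.49%. Lost member regions numbered 15 of 250, and 4 of 154 with scores of at least 10, beside 5.01% of all gene-assigned regions. Within 10 kb they numbered 8 of 170, beside 5.19%. With day 12 alone they numbered 31 of 250, beside 15.7% of all gene-assigned regions. Constant regions went from 97 of 250 to 49 of 154 with scores of at least 10, beside 32.2% of all gene-assigned regions. The member share was thus no longer above that of all gene-assigned regions. With the same scores 0 of 4 lost regions were open at 12 days off. Regions listed only in CD11b-high cells went from 20 of 250 to 13 of 170 within 10 kb, beside 10.2% of all gene-assigned regions. Those only in total cells went from 21 of 250 to 10 of 154 with scores of at least 10, beside 7.06%. Within 10 kb they numbered 12 of 170, beside 9.09%. Per 10000 open regions, the 10 kb limit gave 28, 28.7, 28.3 and 30.2 at day 0, 4, 8 and 12, 29.6 in CD11b-high cells and 26.4, 25.9 and 26.9 at 4, 8 and 12 days off, since it admits fewer regions. The order of day 0 and the libraries off Dox turned under 3 alternatives: 37.9 beside 39.9, 38.2 and 38.1 at 4, 8 and 12 days off with scores of at least 10, 38 beside 39.1, 35.7 and 38.1 with lists of equal length, and 38.3 beside 36.3, 36.4 and 38.8 with 250 bp. The cause of the other shifts was not tested. With depth unknown, a region missing from a list cannot be told apart from a region below the threshold of the caller.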
